A study of Homo sapiens with 12 samples.

Results

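The G2/M and mitotic apparatus genes are the genes that carry a cell from the end of DNA replication through chromosome segregation and division. A list of 48 such genes was taken, of 57199 gene names in the table, and their transcript levels were compared in the human colorectal carcinoma cell line HCT116, with and without doxorubicin. A member was followed in each row of the table whose gene names include it and whose FPKM (fragments scaled by transcript length and library size) was at least 1 in at least 2 libraries. All 48 genes had such a row, and 49 of the 51 rows passed, KIF22 with 2 of them. The rows that failed were second rows of CENPF (0.293 to 0.757 FPKM) and of KIF2C (at most 0.268 FPKM).

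The 6 groups were NSE4 cells with doxorubicin, NSE4 cells with PBS, SMC5 cells with doxorubicin, SMC5 cells with PBS, GFP cells with doxorubicin and GFP cells with PBS, with 2 libraries each. NSE4 cells carried a plasmid for flag-tagged NSE4A, the kleisin subunit of the SMC5/6 genome maintenance complex. SMC5 cells carried one for flag-tagged SMC5, an arm of that complex, and GFP cells were the controls, named GFP in the sample titles and vector in the design text. Drug (1000 nM) or PBS was given for 24 h, starting 24 h after transfection. All groups are 1 cell line transfected in bulk, whose genotype label in the controls is wild type, and no label ties the 2 libraries of a group to separate cultures. The p-values therefore measure the spread between these libraries, which may be technical.

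Entry into mitosis is driven by cyclin B bound to the kinase CDK1. Many of the genes below are switched on late in the cell cycle by MYBL2 with the MuvB complex and then by FOXM1, through a promoter element called the cell cycle genes homology region (CHR) and neighbouring CCAAT boxes bound by NF-Y. When p53 induces the CDK inhibitor p21, MuvB joins the pocket proteins as the DREAM complex and represses many of the same promoters. Doxorubicin, a topoisomerase II poison, is a standard activator of p53.

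The 12 libraries held an estimated 13340000 to 19280000 fragments and 23635 to 26185 loci above 0, and the locus of MT-ATP6 took 16.6 to 33.0% of the summed FPKM. Both doxorubicin-treated SMC5 columns were near-identical, with 1091 equal values above 0 against at most 1 in each of the other 65 pairs of libraries, and their mean was used as 1 sample. A value for SMC5 cells with doxorubicin below is that mean, with n = 1 and no SD. A single library is written by plasmid, treatment and replicate number, as in GFP-DOX 2 or NSE4-PBS 1. NSMCE4A, the NSE4A gene, was read first as the check of its label, at 5280 and 6290 FPKM in NSE4 cells against 85.7 and 89.4 FPKM in GFP cells, both with doxorubicin. With PBS it was at 4070 and 4190 FPKM in NSE4 cells against 68.7 and 74.8 FPKM in GFP cells. SMC5 was at 811 FPKM in SMC5 cells against 18.6 and 7.02 FPKM in GFP cells with doxorubicin, and at 875 and 979 FPKM against 33.5 and 8.76 FPKM with PBS (limma adjusted p = 0.272 and 0.27). CDKN1A, the p21 gene, rose with doxorubicin, to 906 and 1080 FPKM in GFP cells against 292 and 357 FPKM with PBS (log2 change 1.61, limma adjusted p = 0.000106). Its log2 change was 1.68 in NSE4 cells and 1.65 in SMC5 cells. The label was read against 7 colon epithelial markers, whose summed level was 3150 to 3800 FPKM with doxorubicin and 3310 to 3910 FPKM with PBS. EPCAM (120 to 146 FPKM), KRT8, KRT18 and KRT19 (392 to 1800 FPKM) and CDH1 (23.8 to 30.1 FPKM) were high in every library, and CDX2 was at most 6.98 FPKM. VIL1, the villin of the brush border, was at 1.20 to 2.43 FPKM with doxorubicin and near 0 with PBS (0.00654 to 0.141 FPKM). Of 4 markers of other cells, leukocyte PTPRC was at most 0.0378 FPKM, hepatocyte ALB at most 0.494 FPKM and fibroblast COL1A1 at 15.6 to 27.0 FPKM. Fibroblast PDGFRB was at 0.424 to 1.21 FPKM with doxorubicin and 0.0131 to 0.158 FPKM with PBS. The part of these markers in the drug changes below was not tested.

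Doxorubicin lowered a subset of the mitotic genes, while rises were rarer among them than among all tested loci and absent in SMC5 cells. In GFP cells 13 of the 49 member loci fell (26.5%) and 2 rose (4.08%), where 14.1% of all 15833 tested loci fell and 17.00% rose (limma, Benjamini-Hochberg adjusted p at most 0.05, the meaning of rose, fell and called below). In NSE4 cells 11 fell and 3 rose, against 13.9% fallen and 16.3% risen of all tested loci. In SMC5 cells 9 fell and 0 rose, against 9.87% fallen and 11.03% risen of all tested loci, and 19 of the member loci had an unadjusted p under 0.05. The median member log2 change was −0.25 in NSE4 cells, −0.26 in SMC5 cells and −0.10 in GFP cells, and the median of all tested loci was 0.03, 0.02 and 0.02 in the same cells. The comparison asks what doxorubicin does to these genes in each background, and the 3 comparisons share no libraries but share 1 estimate of the spread.

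The counts moved with single libraries. Calls over all tested loci also dropped when a library named below was left out of its own background. In GFP cells without the first or without the second PBS library, the members lost a larger share of their falls than all tested loci did. The share of members that fell was then closer to that of all tested loci than with all libraries. The median member log2 change was then −0.06 and −0.107 in the same order. That of all tested loci was 0.007 and 0.05. The 13 falls in GFP cells became 5 without the first or the second PBS library of GFP cells, 7 without their first and 8 without their second doxorubicin library. The 2 rises there became 0 without the second library of either kind and 4 without either PBS library of NSE4 cells. The 11 falls in NSE4 cells became 7 without their second PBS library, and the 3 rises became 0 without their first PBS or second doxorubicin library and 1 without their first doxorubicin library or either PBS library of SMC5 cells. The 9 falls in SMC5 cells became 5 without their first PBS library, and the 0 rises became 2 without either PBS library of NSE4 cells.

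Falls in all 3 backgrounds were called at 9 loci: KIF20A, CDC20, UBE2S, BUB1, CKS2, CENPF, KIF18A, NEK2 and HMMR. They are 18.4% of the 49 member loci, where 8.25% of all tested loci fell in all 3. They are 81.8% of the member loci that fell in NSE4 cells, 100% of those in SMC5 cells and 69.2% of those in GFP cells, and over all tested loci these shares were 59.2%, 83.6% and 58.6%. CCNB1 and KIF14 fell in NSE4 and GFP cells, and CCNF and PLK1 in GFP cells. The rises were of NUSAP1 in NSE4 and GFP cells, PTTG1 in GFP cells, and ESPL1 and a low locus that carries the KIF22 name in NSE4 cells, where 2 of 48 loci rose without that locus. None of the 49 loci was called in opposite directions, and 32 were called in none of the backgrounds, with log2 changes of −0.91 to 0.93. By the sign of the estimate alone, 30 loci (61.2%) were lower in all 3 backgrounds, 12 (24.5%) were higher in all 3 and 7 were mixed, and of all tested loci 34.9% were lower and 39.3% higher in all 3.

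**Figure D1:**
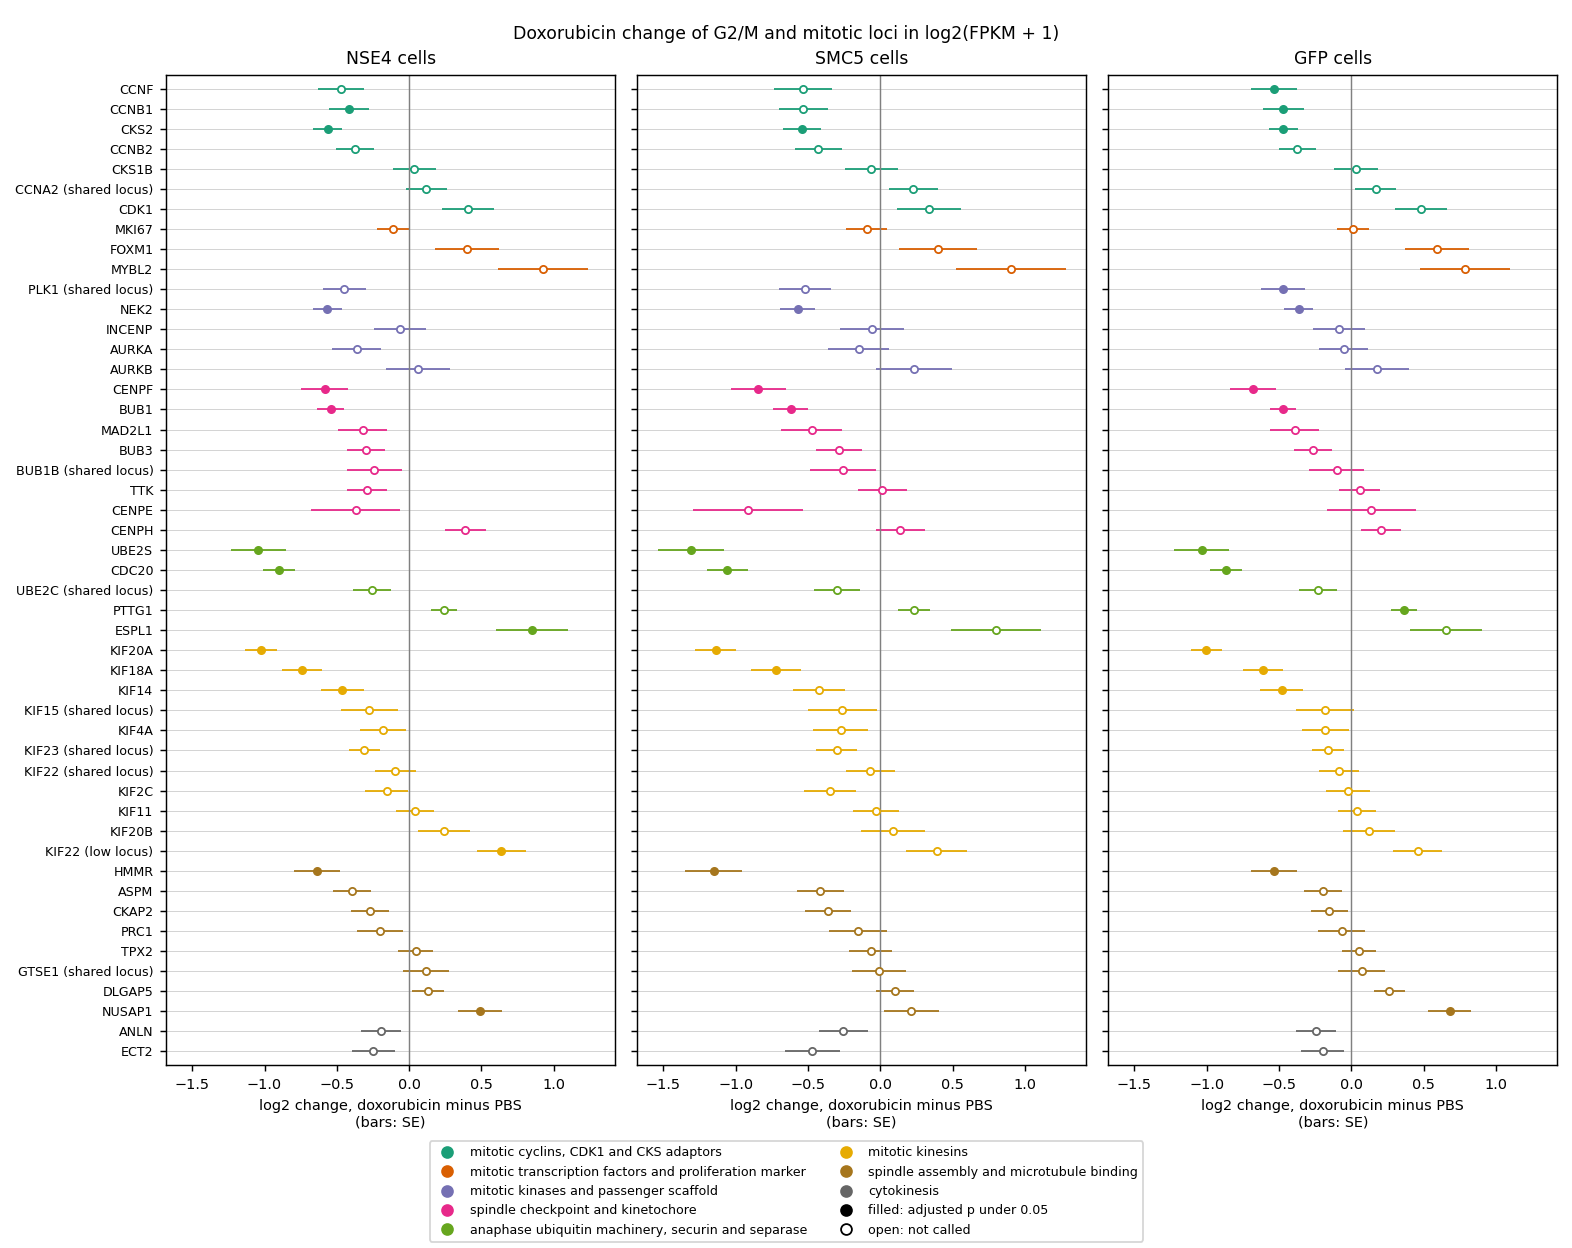
Log2 change with doxorubicin of the 49 member loci on the log2(FPKM + 1) scale (x axis), by role (y axis), in NSE4, SMC5 and GFP cells, with SE bars and filled marks for loci past the threshold. KIF20A, CDC20 and UBE2S lie between −1.31 and −0.87 in every background, and ESPL1, MYBL2 and NUSAP1 lie to the right of 0.

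Many of these genes share promoter elements. Shown are 200 bases of the RefSeq promoters (GRCh38.p14, 170 bases before to 30 after the start, gene strand) of some genes that fell. For contrast, NUSAP1 and ESPL1 are shown, which rose in at least 1 background. Capitals mark TTTGAA, the CHR letters, its variant TTTAAA and the CCAAT box, each also as its reverse complement. The UBE2S stretch holds none of them. The stretches are KIF20A chr5:138178942-138179141 (+), CDC20 chr1:43358811-43359010 (+), UBE2S chr19:55407759-55407958 (-), HMMR chr5:163460462-163460661 (+), CENPF chr1:214603025-214603224 (+), CCNB1 chr5:69166980-69167179 (+), NUSAP1 chr15:41332711-41332910 (+) and ESPL1 chr12:53268129-53268328 (+). No source used here gives the genome build of the deposited table, so these coordinates belong to the RefSeq promoters only.
KIF20A: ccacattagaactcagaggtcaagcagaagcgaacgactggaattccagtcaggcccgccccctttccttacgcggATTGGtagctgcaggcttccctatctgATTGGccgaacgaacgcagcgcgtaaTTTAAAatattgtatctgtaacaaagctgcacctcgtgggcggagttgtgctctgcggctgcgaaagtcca
CDC20: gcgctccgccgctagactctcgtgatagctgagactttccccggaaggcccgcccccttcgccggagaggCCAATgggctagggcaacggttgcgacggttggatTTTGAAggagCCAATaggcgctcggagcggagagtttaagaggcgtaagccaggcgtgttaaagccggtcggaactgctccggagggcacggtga
UBE2S: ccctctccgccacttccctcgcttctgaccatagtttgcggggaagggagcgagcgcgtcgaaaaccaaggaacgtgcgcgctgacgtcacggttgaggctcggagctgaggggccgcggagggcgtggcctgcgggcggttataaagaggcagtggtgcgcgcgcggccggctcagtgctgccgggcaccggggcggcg
HMMR: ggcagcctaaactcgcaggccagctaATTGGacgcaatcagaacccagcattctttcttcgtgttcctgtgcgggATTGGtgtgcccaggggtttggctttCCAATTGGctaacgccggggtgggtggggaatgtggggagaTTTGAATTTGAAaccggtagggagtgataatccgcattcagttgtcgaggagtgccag
CENPF: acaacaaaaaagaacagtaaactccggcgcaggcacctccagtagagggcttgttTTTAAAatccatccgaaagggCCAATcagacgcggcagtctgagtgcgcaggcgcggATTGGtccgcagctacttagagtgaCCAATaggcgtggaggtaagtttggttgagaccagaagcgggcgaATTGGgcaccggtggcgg
CCNB1: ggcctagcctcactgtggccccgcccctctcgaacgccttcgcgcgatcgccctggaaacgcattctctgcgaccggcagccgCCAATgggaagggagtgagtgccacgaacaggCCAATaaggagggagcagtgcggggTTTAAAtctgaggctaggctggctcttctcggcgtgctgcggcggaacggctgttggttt
NUSAP1: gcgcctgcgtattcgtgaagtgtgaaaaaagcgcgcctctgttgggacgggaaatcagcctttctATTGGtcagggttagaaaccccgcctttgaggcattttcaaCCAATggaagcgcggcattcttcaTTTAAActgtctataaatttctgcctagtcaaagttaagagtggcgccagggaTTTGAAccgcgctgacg
ESPL1: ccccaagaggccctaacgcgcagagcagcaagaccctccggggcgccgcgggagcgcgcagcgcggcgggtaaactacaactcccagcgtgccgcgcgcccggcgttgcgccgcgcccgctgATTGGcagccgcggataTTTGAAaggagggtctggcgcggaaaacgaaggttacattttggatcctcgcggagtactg

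In windows of 300 bases (250 before to 50 after the start), 41 of the 48 genes matched a RefSeq promoter, with 46 windows. TTTGAA or its reverse complement stood in 30 of these windows (65.2%) and in 15.2% of all 35116 RefSeq promoter windows. The CCAAT box, on either strand, stood in 80.4% of the member windows and 34.6% of all windows, and TTTAAA in 32.6% and 12.2%. E2F site letters were searched on both strands as TTCCCGC, a common form of the site, as its variant TTGGCGC, as a further variant TTGCCGC and as one more variant TTCGCGC. They stood in 21.7% of the member windows and 13.0% of all windows. Split by drug response, TTTGAA was in 8 of 13 windows of fallen genes (61.5%), in 2 of 4 windows of risen genes (50.0%) and in 20 of 27 windows of genes with no call (74.1%). The CCAAT box was in all 13 windows of fallen genes, in all 4 of risen genes and in 19 of 27 of genes with no call. TTTGAA or TTTAAA stood in 6 of 9 windows of genes that fell in all 3 backgrounds (66.7%), with UBE2S, BUB1 and NEK2 lacking both. It stood in 22 of 27 windows of genes with no call (81.5%). These shares count windows and not genes. The 4 windows of risen genes are of 3 genes, since PTTG1 has 2 of them, both without TTTGAA. The 27 windows of genes with no call are of 24 genes, with 2 windows each for AURKB, CDK1 and ECT2. The 2 windows of KIF22 are in none of these classes, since its loci differ in their call. No promoter entry was found for AURKA, UBE2C, TTK, FOXM1, CENPH, TPX2 and BUB3. A match of letters is a description, and no site or binding was measured.

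Levels in cells given PBS spanned a wide range on the FPKM scale, which is per length. In GFP cells CKS2 was highest at 275 ± 8.81 FPKM (SD, n = 2), and UBE2S averaged 168 ± 28.1 FPKM and CDC20 113 ± 4.40 FPKM. At the low end CENPE averaged 5.24 FPKM, KIF14 4.86 FPKM, KIF20B 4.61 FPKM and the low locus with the KIF22 name 1.84 FPKM. Of the 49 loci 8 also name another coding gene, so that their reads cannot be divided: CCNA2 with BBS7, PLK1 with DCTN5, BUB1B with PAK6, UBE2C with DNTTIP1, KIF15 with TMEM42, KIF23 with PAQR5, GTSE1 with TRMU, and KIF22 with MAZ, MVP, PAGR1 and PRRT2. Among the 41 loci that do not, 11 fell and 3 rose in NSE4 cells, 9 fell and 0 rose in SMC5 cells, and 12 fell and 2 rose in GFP cells. In a bulk sample, fewer cells in G2 or mitosis and less RNA per cell cannot be told apart.

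Among the mitotic cyclins, CDK1 and the CKS adaptors, CKS2 and CCNB1 fell while the estimates for CDK1 itself lay above 0. CKS2, a small subunit that binds CDK1 and helps it find phosphorylated substrates, had 186 and 179 FPKM in NSE4 cells given doxorubicin, against 269.7 and 269.7 FPKM in NSE4 cells given PBS. For SMC5 cells CKS2 stood at 178 FPKM with doxorubicin, against 272 and 248 FPKM with PBS. For GFP cells CKS2 read 219 and 181 FPKM with doxorubicin, against 269 and 282 FPKM with PBS. Every doxorubicin library lay below every PBS library in each background, and GFP-DOX 1 came closest to the PBS level. CKS2 log2 changes were −0.56 (SE 0.10, limma adjusted p = 0.00508) in NSE4 cells, −0.54 (SE 0.13, limma adjusted p = 0.0202) in SMC5 cells and −0.47 (SE 0.10, limma adjusted p = 0.0109) in GFP cells. The CKS2 call was lost in SMC5 cells without SMC5-PBS 1 (adjusted p = 0.0868) and under quantile normalization (adjusted p = 0.0948). CKS2 lost its call in GFP cells without GFP-PBS 2 (adjusted p = 0.064) or GFP-DOX 2 (adjusted p = 0.0574).

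CCNB1, cyclin B1, the partner that activates CDK1 at mitotic entry, had 57.1 and 51.9 FPKM in NSE4 cells given doxorubicin, against 66.2 and 80.3 FPKM in NSE4 cells given PBS. For SMC5 cells CCNB1 stood at 52.6 FPKM with doxorubicin, against 78.6 and 74.7 FPKM with PBS. For GFP cells CCNB1 read 50.0 and 63.2 FPKM with doxorubicin, against 77.9 and 78.6 FPKM with PBS. The drug-treated libraries were lower in every background, without overlap, and the gap was smallest between NSE4-DOX 1 and NSE4-PBS 1. CCNB1 log2 changes were −0.42 (SE 0.14, limma adjusted p = 0.0493) in NSE4 cells, −0.53 (SE 0.17, limma adjusted p = 0.0538) in SMC5 cells and −0.47 (SE 0.14, limma adjusted p = 0.031) in GFP cells, so that it fell in NSE4 and GFP cells and missed the threshold in SMC5 cells. The CCNB1 call was lost in NSE4 cells without the filter on low values, GFP-PBS 1, GFP-PBS 2, NSE4-PBS 2, NSE4-DOX 1, NSE4-DOX 2, SMC5-PBS 1 or SMC5-PBS 2 (adjusted p = 0.0706 to 0.226). CCNB1 lost its call in GFP cells without the filter on low values, GFP-PBS 1, GFP-PBS 2 or GFP-DOX 1 (adjusted p = 0.073 to 0.159).

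CCNF, cyclin F, a substrate receptor of an SCF ubiquitin ligase, fell in GFP cells (log2 change −0.54, limma adjusted p = 0.0388) and was at −0.47 in NSE4 and −0.54 in SMC5 cells, and it is named after its values were seen. The CCNF call was lost in GFP cells without the filter on low values, GFP-PBS 1, GFP-PBS 2, GFP-DOX 1, SMC5-PBS 1 or SMC5-PBS 2 (adjusted p = 0.0556 to 0.197). CCNB2, the second mitotic B cyclin, had log2 changes of −0.37, −0.43 and −0.37 in NSE4, SMC5 and GFP cells and missed the threshold in each (limma adjusted p = 0.0591, 0.0911 and 0.0587). CDK1, the mitotic kinase that these cyclins activate, had 114 and 95.4 FPKM in NSE4 cells given doxorubicin, against 73.9 and 82.9 FPKM in NSE4 cells given PBS. For SMC5 cells CDK1 stood at 107 FPKM with doxorubicin, against 94.1 and 76.6 FPKM with PBS. For GFP cells CDK1 read 113 and 109 FPKM with doxorubicin, against 94.6 and 66.3 FPKM with PBS. All doxorubicin libraries were above all PBS libraries of the same background, the opposite order to CCNB1 and CCNB2. Its log2 changes of 0.41 in NSE4, 0.34 in SMC5 and 0.48 in GFP cells did not pass (limma adjusted p = 0.121, 0.316 and 0.0735). Of the 7 loci in this role 2 fell in NSE4, 1 in SMC5 and 3 in GFP cells and 0 rose, with median log2 changes of −0.37, −0.43 and −0.37. CKS1B and the shared CCNA2 locus were called in none.

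CCNB2, CDK1 and the next 3 genes were called nowhere and are named after their values were seen. The transcription factors of the programme and the proliferation marker MKI67 passed the test in none of the backgrounds. MYBL2, the B-Myb subunit that joins MuvB in S phase, had 33.9 and 35.6 FPKM in NSE4 cells given doxorubicin, against 12.1 and 26.0 FPKM in NSE4 cells given PBS. For SMC5 cells MYBL2 stood at 35.1 FPKM with doxorubicin, against 16.4 and 20.4 FPKM with PBS. For GFP cells MYBL2 read 29.6 and 39.4 FPKM with doxorubicin, against 22.0 and 17.0 FPKM with PBS. It was higher with doxorubicin in each background without overlap, and the PBS libraries of NSE4 cells were far apart. MYBL2 log2 changes were 0.93 (SE 0.31, limma adjusted p = 0.0529) in NSE4 cells, 0.90 (SE 0.38, limma adjusted p = 0.128) in SMC5 cells and 0.79 (SE 0.31, limma adjusted p = 0.0871) in GFP cells. FOXM1, the forkhead factor that follows it on the same promoters, had log2 changes of 0.40, 0.40 and 0.59 in NSE4, SMC5 and GFP cells (limma adjusted p = 0.205, 0.328 and 0.0738). MKI67, which coats mitotic chromosomes, had 25.5 and 26.8 FPKM in NSE4 cells given doxorubicin, against 25.7 and 31.3 FPKM in NSE4 cells given PBS. For SMC5 cells MKI67 stood at 25.9 FPKM with doxorubicin, against 28.2 and 27.3 FPKM with PBS. For GFP cells MKI67 read 27.8 and 29.5 FPKM with doxorubicin, against 29.3 and 27.5 FPKM with PBS. The groups overlapped in NSE4 and GFP cells and lay close together in SMC5 cells, and the log2 changes were −0.11, −0.09 and 0.01 (limma adjusted p = 0.48, 0.669 and 0.956).

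Of 5 mitotic kinase and chromosomal passenger loci, 1 fell in NSE4, 1 in SMC5 and 2 in GFP cells and 0 rose, with median log2 changes of −0.36, −0.15 and −0.09. NEK2, the kinase that lets duplicated centrosomes part, had 12.4 and 11.8 FPKM in NSE4 cells given doxorubicin, against 17.2 and 19.5 FPKM in NSE4 cells given PBS. For SMC5 cells NEK2 stood at 13.1 FPKM with doxorubicin, against 20.2 and 19.8 FPKM with PBS. For GFP cells NEK2 read 13.9 and 15.2 FPKM with doxorubicin, against 19.1 and 18.9 FPKM with PBS. The drug-treated libraries were lower without overlap, and the doxorubicin values of GFP cells were the highest of the 3 backgrounds. NEK2 log2 changes were −0.57 (SE 0.10, limma adjusted p = 0.0046) in NSE4 cells, −0.57 (SE 0.12, limma adjusted p = 0.0156) in SMC5 cells and −0.36 (SE 0.10, limma adjusted p = 0.0279) in GFP cells. The NEK2 call was lost in SMC5 cells without SMC5-PBS 1 (adjusted p = 0.0604) or SMC5-PBS 2 (adjusted p = 0.0515). NEK2 lost its call in GFP cells without GFP-PBS 1, GFP-PBS 2, GFP-DOX 1 or GFP-DOX 2 (adjusted p = 0.0529 to 0.123). PLK1, the polo-like kinase of mitotic entry, shares its locus with DCTN5, and is also named after its values were seen. It fell in GFP cells with a log2 change of −0.47 (limma adjusted p = 0.0409) and was at −0.45 in NSE4 cells and −0.52 in SMC5 cells (limma adjusted p = 0.0506 and 0.0772). The PLK1 call was lost in GFP cells without the filter on low values, GFP-PBS 1, GFP-PBS 2, GFP-DOX 1, SMC5-PBS 1 or SMC5-PBS 2 (adjusted p = 0.0615 to 0.205). AURKA, the spindle pole aurora kinase, AURKB, the passenger complex kinase, and INCENP, its scaffold, were called in none, with log2 changes between −0.36 and 0.23.

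Of 8 spindle checkpoint and kinetochore loci 2 fell and 0 rose in each background, with median log2 changes of −0.31 in NSE4, −0.38 in SMC5 and −0.18 in GFP cells. BUB1, the checkpoint kinase of the kinetochore, had 15.4 and 14.4 FPKM in NSE4 cells given doxorubicin, against 21.3 and 23.0 FPKM in NSE4 cells given PBS. For SMC5 cells BUB1 stood at 15.9 FPKM with doxorubicin, against 26.0 and 24.1 FPKM with PBS. For GFP cells BUB1 read 16.8 and 16.9 FPKM with doxorubicin, against 23.7 and 23.7 FPKM with PBS. No doxorubicin library reached the lowest PBS library of its background, and the values within each treatment were close. BUB1 log2 changes were −0.54 (SE 0.09, limma adjusted p = 0.00395) in NSE4 cells, −0.62 (SE 0.12, limma adjusted p = 0.00838) in SMC5 cells and −0.47 (SE 0.09, limma adjusted p = 0.00742) in GFP cells, and the calls held under each of the 19 alternatives run. CENPF, a large kinetochore protein that also serves as a marker of G2 cells, had 7.79 and 9.63 FPKM in NSE4 cells given doxorubicin, against 12.6 and 14.4 FPKM in NSE4 cells given PBS. For SMC5 cells CENPF stood at 9.17 FPKM with doxorubicin, against 19.9 and 14.9 FPKM with PBS. For GFP cells CENPF read 8.86 and 8.34 FPKM with doxorubicin, against 14.2 and 14.5 FPKM with PBS. The doxorubicin libraries were again the lower ones in every background, and the first PBS library of SMC5 cells was the highest of all. CENPF log2 changes were −0.59 (SE 0.16, limma adjusted p = 0.0233) in NSE4 cells, −0.84 (SE 0.19, limma adjusted p = 0.0176) in SMC5 cells and −0.68 (SE 0.16, limma adjusted p = 0.0124) in GFP cells. The CENPF call was lost in NSE4 cells without the filter on low values (adjusted p = 0.0584), NSE4-PBS 2 (adjusted p = 0.11) or NSE4-DOX 1 (adjusted p = 0.13). CENPF lost its call in SMC5 cells without SMC5-PBS 1 (adjusted p = 0.067). CENPF lost its call in GFP cells without GFP-PBS 1 (adjusted p = 0.0539), GFP-PBS 2 (adjusted p = 0.0615) or GFP-DOX 2 (adjusted p = 0.0677). The other 6 loci, BUB1B with PAK6, BUB3, MAD2L1, TTK, CENPE and CENPH, were called in none, with log2 changes between −0.91 and 0.39.

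Of the 5 loci of the anaphase ubiquitin machinery, securin and separase, 2 fell in every background, and 1 rose in NSE4, 0 in SMC5 and 1 in GFP cells. CDC20, which activates the anaphase-promoting complex (APC/C) and is held by the spindle checkpoint, had 54.0 and 61.3 FPKM in NSE4 cells given doxorubicin, against 102 and 115 FPKM in NSE4 cells given PBS. For SMC5 cells CDC20 stood at 55.8 FPKM with doxorubicin, against 113 and 121 FPKM with PBS. For GFP cells CDC20 read 57.0 and 66.2 FPKM with doxorubicin, against 109.9 and 116 FPKM with PBS. With the SMC5 mean counted as 1 value, the drug-treated values lay between 54.0 and 66.2 FPKM in every background. The lowest PBS library stood at 102 FPKM. CDC20 log2 changes were −0.90 (SE 0.11, limma adjusted p = 0.000917) in NSE4 cells, −1.06 (SE 0.14, limma adjusted p = 0.00192) in SMC5 cells and −0.87 (SE 0.11, limma adjusted p = 0.00104) in GFP cells. UBE2S, the ubiquitin-conjugating enzyme that extends chains on APC/C substrates, had 67.1 and 85.1 FPKM in NSE4 cells given doxorubicin, against 146 and 168 FPKM in NSE4 cells given PBS. For SMC5 cells UBE2S stood at 70.7 FPKM with doxorubicin, against 164 and 191 FPKM with PBS. For GFP cells UBE2S read 68.8 and 94.5 FPKM with doxorubicin, against 148 and 187 FPKM with PBS. Its groups did not overlap, and the 2 libraries of a pair stood farthest apart, as a ratio, in GFP cells with doxorubicin. UBE2S log2 changes were −1.04 (SE 0.19, limma adjusted p = 0.00504) in NSE4 cells, −1.31 (SE 0.23, limma adjusted p = 0.00693) in SMC5 cells and −1.03 (SE 0.19, limma adjusted p = 0.00502) in GFP cells. The CDC20 and UBE2S calls held under each of the 19 alternatives run in every background. The UBE2S locus also carries the name CTD-2105E13.13.

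PTTG1, securin, the inhibitor of separase that the APC/C destroys, had 148 and 138 FPKM in NSE4 cells given doxorubicin, against 122 and 119.9 FPKM in NSE4 cells given PBS. For SMC5 cells PTTG1 stood at 143 FPKM with doxorubicin, against 119 and 125 FPKM with PBS. For GFP cells PTTG1 read 146 and 159.9 FPKM with doxorubicin, against 122 and 115 FPKM with PBS. The doxorubicin libraries were higher in every background without overlap. PTTG1 log2 changes were 0.24 (SE 0.09, limma adjusted p = 0.0688) in NSE4 cells, 0.24 (SE 0.11, limma adjusted p = 0.155) in SMC5 cells and 0.36 (SE 0.09, limma adjusted p = 0.0153) in GFP cells, which passed in GFP cells, and neither interaction with a plasmid was called. The PTTG1 call was lost in GFP cells without GFP-PBS 2 (adjusted p = 0.0891) or GFP-DOX 2 (adjusted p = 0.0828). ESPL1, separase, the protease that cleaves cohesin, had 21.4 and 23.6 FPKM in NSE4 cells given doxorubicin, against 8.93 and 16.1 FPKM in NSE4 cells given PBS. For SMC5 cells ESPL1 stood at 20.7 FPKM with doxorubicin, against 12.5 and 10.5 FPKM with PBS. For GFP cells ESPL1 read 19.3 and 25.8 FPKM with doxorubicin, against 15.5 and 12.3 FPKM with PBS. Its doxorubicin libraries were above the PBS ones without overlap, and the PBS libraries of NSE4 cells were far apart. ESPL1 log2 changes were 0.85 (SE 0.25, limma adjusted p = 0.0362) in NSE4 cells, 0.80 (SE 0.31, limma adjusted p = 0.104) in SMC5 cells and 0.66 (SE 0.25, limma adjusted p = 0.0835) in GFP cells. The ESPL1 call was lost in NSE4 cells without the filter on low values, NSE4-PBS 1, NSE4-DOX 1, NSE4-DOX 2, SMC5-PBS 1 or SMC5-PBS 2 (adjusted p = 0.0509 to 0.174). The locus UBE2C shares with DNTTIP1 was called in none.

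**Figure D2:**
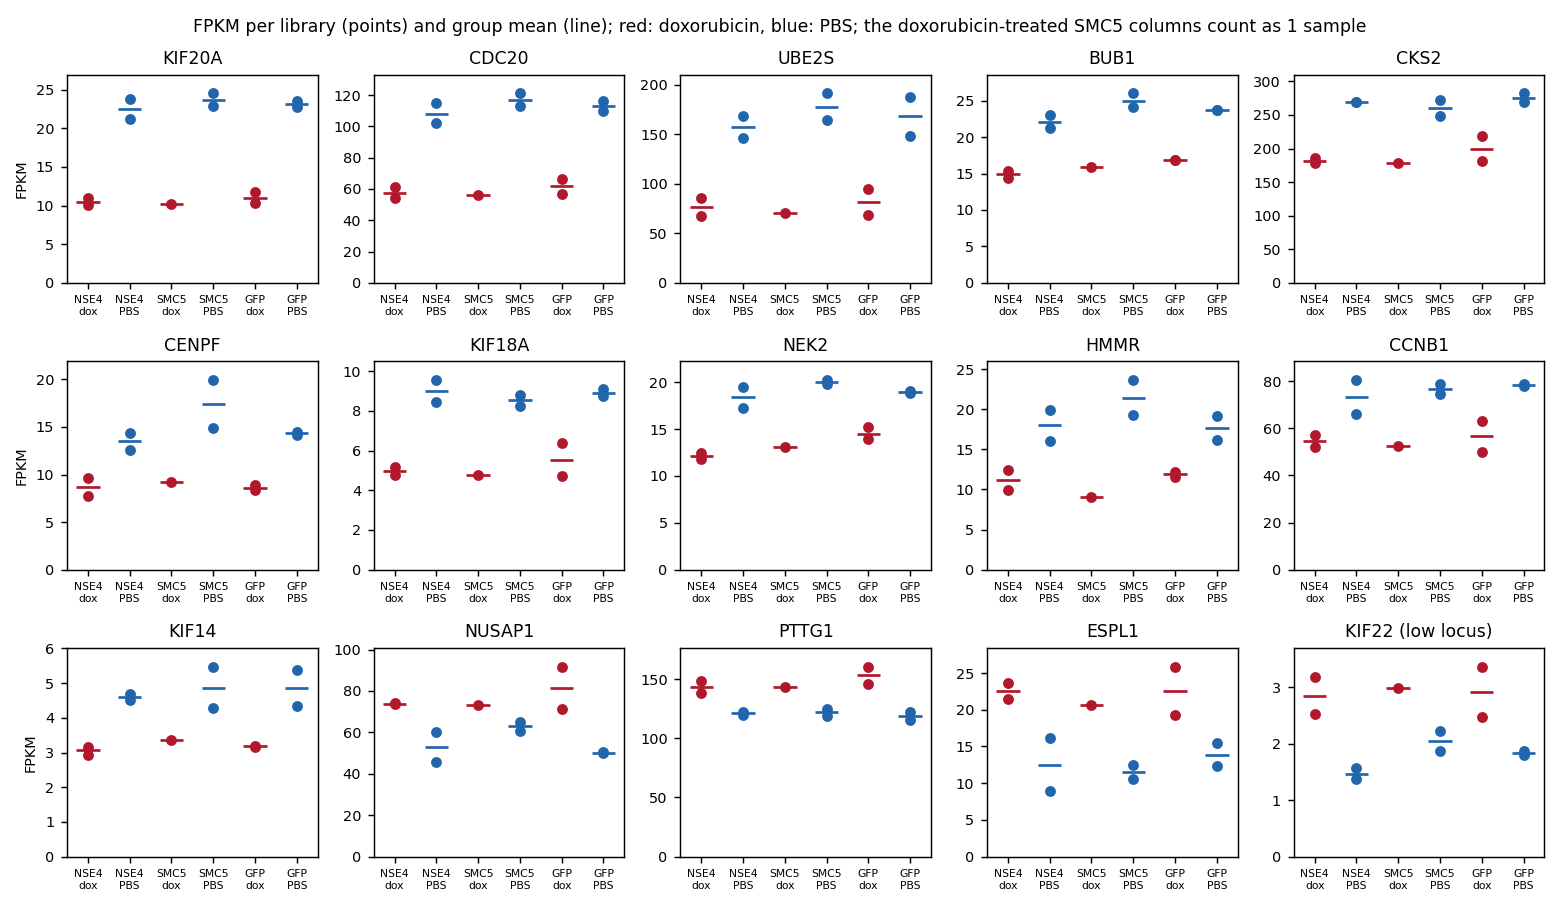
FPKM of named members (y axis, each panel on its own linear scale from 0) in each library of NSE4, SMC5 and GFP cells, with doxorubicin left of PBS in each pair; a bar marks each group mean, and the doxorubicin-treated SMC5 point is the mean of its near-identical columns. KIF20A and CDC20 points with doxorubicin lie well below the PBS ones (10.1 to 11.8 and 54.0 to 66.2 FPKM), and NUSAP1 and ESPL1 points with doxorubicin lie above the PBS ones.

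Among 11 mitotic kinesin loci 3 fell in NSE4, 2 in SMC5 and 3 in GFP cells, and 1, 0 and 0 rose. KIF20A, the kinesin of the central spindle that brings PLK1 there for cytokinesis, had 10.1 and 11.03 FPKM in NSE4 cells given doxorubicin, against 21.2 and 23.8 FPKM in NSE4 cells given PBS. For SMC5 cells KIF20A stood at 10.2 FPKM with doxorubicin, against 22.9 and 24.5 FPKM with PBS. For GFP cells KIF20A read 10.3 and 11.8 FPKM with doxorubicin, against 23.5 and 22.7 FPKM with PBS. The gap between treatments exceeded the gap between the libraries of a pair in every background. KIF20A log2 changes were −1.02 (SE 0.11, limma adjusted p = 0.000456) in NSE4 cells, −1.14 (SE 0.14, limma adjusted p = 0.00133) in SMC5 cells and −1.00 (SE 0.11, limma adjusted p = 0.000502) in GFP cells. These were the smallest p-values of any member in each background, and the calls held under each of the 19 alternatives run. KIF18A, which damps the movements of aligned chromosomes, had 4.79 and 5.17 FPKM in NSE4 cells given doxorubicin, against 8.47 and 9.54 FPKM in NSE4 cells given PBS. For SMC5 cells KIF18A stood at 4.79 FPKM with doxorubicin, against 8.82 and 8.25 FPKM with PBS. For GFP cells KIF18A read 6.36 and 4.73 FPKM with doxorubicin, against 9.10 and 8.74 FPKM with PBS. Drug-treated libraries were lower in every background, and the GFP pair with doxorubicin was the most spread. KIF18A log2 changes were −0.74 (SE 0.14, limma adjusted p = 0.00583) in NSE4 cells, −0.72 (SE 0.17, limma adjusted p = 0.0218) in SMC5 cells and −0.61 (SE 0.14, limma adjusted p = 0.0127) in GFP cells. The KIF18A call was lost in SMC5 cells without SMC5-PBS 1 (adjusted p = 0.0833) or SMC5-PBS 2 (adjusted p = 0.0575). KIF18A lost its call in GFP cells without GFP-PBS 1 (adjusted p = 0.0647), GFP-PBS 2 (adjusted p = 0.0518) or GFP-DOX 2 (adjusted p = 0.0704).

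KIF14, a midbody kinesin that works with citron kinase, had 3.17 and 2.94 FPKM in NSE4 cells given doxorubicin, against 4.68 and 4.50 FPKM in NSE4 cells given PBS. For SMC5 cells KIF14 stood at 3.36 FPKM with doxorubicin, against 5.46 and 4.28 FPKM with PBS. For GFP cells KIF14 read 3.17 and 3.19 FPKM with doxorubicin, against 5.37 and 4.34 FPKM with PBS. Doxorubicin libraries stood below PBS libraries in every background, all at the low levels of a rare transcript. KIF14 log2 changes were −0.46 (SE 0.15, limma adjusted p = 0.0436) in NSE4 cells, −0.42 (SE 0.18, limma adjusted p = 0.131) in SMC5 cells and −0.48 (SE 0.15, limma adjusted p = 0.0364) in GFP cells. The KIF14 call was lost in NSE4 cells without the filter on low values, GFP-DOX 1, GFP-DOX 2, NSE4-PBS 1, NSE4-PBS 2, NSE4-DOX 1 or NSE4-DOX 2 (adjusted p = 0.0599 to 0.158). KIF14 lost its call in GFP cells without the filter on low values, GFP-PBS 1, GFP-DOX 1, GFP-DOX 2, NSE4-PBS 1, NSE4-PBS 2, NSE4-DOX 1 or NSE4-DOX 2 (adjusted p = 0.0501 to 0.188). KIF22, the chromosome arm kinesin, is named at 2 loci. The locus it shares with MAZ, MVP, PAGR1 and PRRT2 was at 113 to 144 FPKM in the 12 libraries, with log2 changes of −0.10, −0.07 and −0.08 in NSE4, SMC5 and GFP cells and no call. A low locus carries the KIF22 name alone, and no source used here shows that its fragments come from the kinesin's own transcript. This low locus had 2.53 and 3.18 FPKM in NSE4 cells given doxorubicin, against 1.37 and 1.58 FPKM in NSE4 cells given PBS. For SMC5 cells the low locus stood at 2.99 FPKM with doxorubicin, against 1.88 and 2.22 FPKM with PBS. For GFP cells the low locus read 2.48 and 3.36 FPKM with doxorubicin, against 1.80 and 1.87 FPKM with PBS. These values are low, and the doxorubicin libraries were above the PBS libraries in each background. The log2 changes at the low locus were 0.64 (SE 0.17, limma adjusted p = 0.023) in NSE4 cells, 0.39 (SE 0.21, limma adjusted p = 0.22) in SMC5 cells and 0.46 (SE 0.17, limma adjusted p = 0.072) in GFP cells. The call at the low KIF22 locus was lost in NSE4 cells without the filter on low values, NSE4-PBS 1, NSE4-PBS 2 or NSE4-DOX 2 (adjusted p = 0.0503 to 0.122). The remaining kinesins, KIF2C, KIF4A, KIF11, KIF15, KIF20B and KIF23, were called in none, with log2 changes between −0.35 and 0.24.

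Of 8 spindle assembly and microtubule-binding loci 1 fell in each background, and 1 rose in NSE4, 0 in SMC5 and 1 in GFP cells. HMMR, a hyaluronan receptor that also acts at spindle poles, had 12.4 and 9.97 FPKM in NSE4 cells given doxorubicin, against 16.0 and 19.9 FPKM in NSE4 cells given PBS. For SMC5 cells HMMR stood at 9.03 FPKM with doxorubicin, against 23.6 and 19.3 FPKM with PBS. For GFP cells HMMR read 11.5 and 12.2 FPKM with doxorubicin, against 19.1 and 16.2 FPKM with PBS. The drug-treated libraries were lower without overlap, and SMC5 cells had both the lowest doxorubicin value and the highest PBS value. HMMR log2 changes were −0.64 (SE 0.16, limma adjusted p = 0.0196) in NSE4 cells, −1.15 (SE 0.20, limma adjusted p = 0.00586) in SMC5 cells and −0.53 (SE 0.16, limma adjusted p = 0.0376) in GFP cells. The HMMR call was lost in NSE4 cells without the filter on low values (adjusted p = 0.0543), NSE4-PBS 2 (adjusted p = 0.105) or NSE4-DOX 2 (adjusted p = 0.113). HMMR lost its call in GFP cells without the filter on low values, GFP-PBS 1, GFP-PBS 2, GFP-DOX 1 or GFP-DOX 2 (adjusted p = 0.0642 to 0.183). NUSAP1, which bundles spindle microtubules near chromosomes, had 74.0 and 73.8 FPKM in NSE4 cells given doxorubicin, against 45.5 and 60.2 FPKM in NSE4 cells given PBS. For SMC5 cells NUSAP1 stood at 73.3 FPKM with doxorubicin, against 60.9 and 65.2 FPKM with PBS. For GFP cells NUSAP1 read 71.5 and 91.5 FPKM with doxorubicin, against 49.8 and 50.5 FPKM with PBS. Every doxorubicin library was above the PBS libraries of its background, opposite to HMMR. NUSAP1 log2 changes were 0.49 (SE 0.15, limma adjusted p = 0.0419) in NSE4 cells, 0.21 (SE 0.19, limma adjusted p = 0.455) in SMC5 cells and 0.68 (SE 0.15, limma adjusted p = 0.0116) in GFP cells. The NUSAP1 call was lost in NSE4 cells without the filter on low values, GFP-PBS 1, GFP-PBS 2, NSE4-PBS 1, NSE4-DOX 1, NSE4-DOX 2, SMC5-PBS 1 or SMC5-PBS 2 (adjusted p = 0.0606 to 0.213). NUSAP1 lost its call in GFP cells without GFP-PBS 1 (adjusted p = 0.0572), GFP-PBS 2 (adjusted p = 0.054) or GFP-DOX 2 (adjusted p = 0.0736). ASPM, CKAP2, DLGAP5, PRC1, TPX2 and GTSE1 with TRMU were called in none, with log2 changes between −0.41 and 0.26. The cytokinesis genes ANLN, an actin and septin scaffold, and ECT2, the RhoA exchange factor of the cleavage furrow, were called in none, with log2 changes between −0.47 and −0.19.

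No member passed the test between plasmids. For SMC5 cells this test also missed the SMC5 gene itself, at log2 differences of 6.02 with doxorubicin and 5.66 with PBS. That gene had a large SE, 0.92 with doxorubicin and 0.75 with PBS. For NSE4 cells the test did call NSMCE4A, at 6.03 with doxorubicin and 5.83 with PBS, differences far beyond those of any member. Neither gene measures how small a member difference the test could call. The lack of member calls does not show equal levels in SMC5 or in NSE4 cells. With doxorubicin, NSE4 cells differed from GFP cells at 0 of the 49 loci in limma's test (3 at an unadjusted p under 0.05), where 0.0568% of all tested loci were called. With PBS, NSE4 cells differed at 0 member loci (0 at an unadjusted p under 0.05), where 0.0442% of all tested loci were called. SMC5 cells differed from GFP cells at 0 with doxorubicin (1 unadjusted), where 0.0316% were called, and at 0 with PBS (0 unadjusted), where 0% were called. The estimates ran from −0.78 to 0.36 for NSE4 with doxorubicin, −0.27 to 0.18 for NSE4 with PBS, −1.07 to 0.19 for SMC5 with doxorubicin and −0.25 to 0.32 for SMC5 with PBS on the log2 scale. The median margin of their 95% intervals (bound minus estimate) was 0.34 for NSE4 under both treatments and 0.41 and 0.34 for SMC5 with doxorubicin and PBS. Most 95% intervals stayed within 1 on the log2 scale: 48, 49, 48 and 49 of the 49 loci in the same order. By sign alone 41 of the 49 estimates were below 0 for NSE4 and 38 for SMC5 with doxorubicin, and 31 and 16 with PBS, where 7426, 7901, 7231 and 7415 of all 15833 loci were. The member medians with doxorubicin were −0.08 for NSE4 and −0.07 for SMC5. Without GFP-DOX 2 they were 0.001 and 0.015, where the medians of all tested loci were 0.060 and 0.049. Without GFP-DOX 1 they were −0.173 and −0.17, where those of all tested loci were −0.039 and −0.051. The 4 comparisons with GFP cells share their control libraries in pairs.

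The estimates farthest from 0 with doxorubicin were those of CENPE, the kinesin motor of the kinetochore, named here after its values were seen. It had 2.45 and 3.54 FPKM in NSE4 cells given doxorubicin, against 4.28 and 3.96 FPKM in NSE4 cells given PBS. For SMC5 cells CENPE stood at 2.23 FPKM with doxorubicin, against 3.88 and 6.59 FPKM with PBS. For GFP cells CENPE read 7.79 and 4.22 FPKM with doxorubicin, against 6.27 and 4.21 FPKM with PBS. The GFP pair with doxorubicin was itself uneven, and the lone SMC5 value was the lowest of all. The log2 difference with doxorubicin was −0.78 for NSE4 against GFP cells (95% interval −1.48 to −0.07) and −1.07 for SMC5 against GFP cells (95% interval −1.93 to −0.21), with limma adjusted p = 1 for both. CENPH, a kinetochore protein, at 0.36, and NEK2, at −0.25, were the other members with an unadjusted p under 0.05 for NSE4 with doxorubicin.

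Whether the drug change itself differed by plasmid was tested as an interaction. For NSE4 against GFP cells 0 of the 49 loci were called by limma (0 at an unadjusted p under 0.05), where 0.0316% of all tested loci were, with estimates of −0.51 to 0.19. For SMC5 against GFP cells 0 were called (1 unadjusted), where 0.0189% of all tested loci were, with estimates of −1.05 to 0.15. The estimate was below 0 at 33 of the 49 loci for NSE4 and 41 for SMC5, with medians of −0.03 and −0.09, where 8048 and 8127 of all loci were below 0. Without GFP-DOX 2 these medians were 0.056 and −0.048, where those of all tested loci were 0.047 and 0.042. Without GFP-DOX 1 they were −0.142 and −0.192, where those of all tested loci were −0.052 and −0.06. The median margin of the 95% interval was 0.48 for NSE4 and 0.53 for SMC5, and the interval reached past 1 on the log2 scale at 3 loci for NSE4 and 5 for SMC5. HMMR had the smallest p of the SMC5 interactions, with an estimate of −0.62 on the log2 scale (95% interval −1.21 to −0.03, limma adjusted p = 1). For NUSAP1, called in NSE4 and GFP cells and not in SMC5 cells, the SMC5 interaction was −0.46 (95% interval −1.02 to 0.09, limma adjusted p = 1). A p-value that misses the threshold does not show that the backgrounds respond alike.

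**Figure D3:**
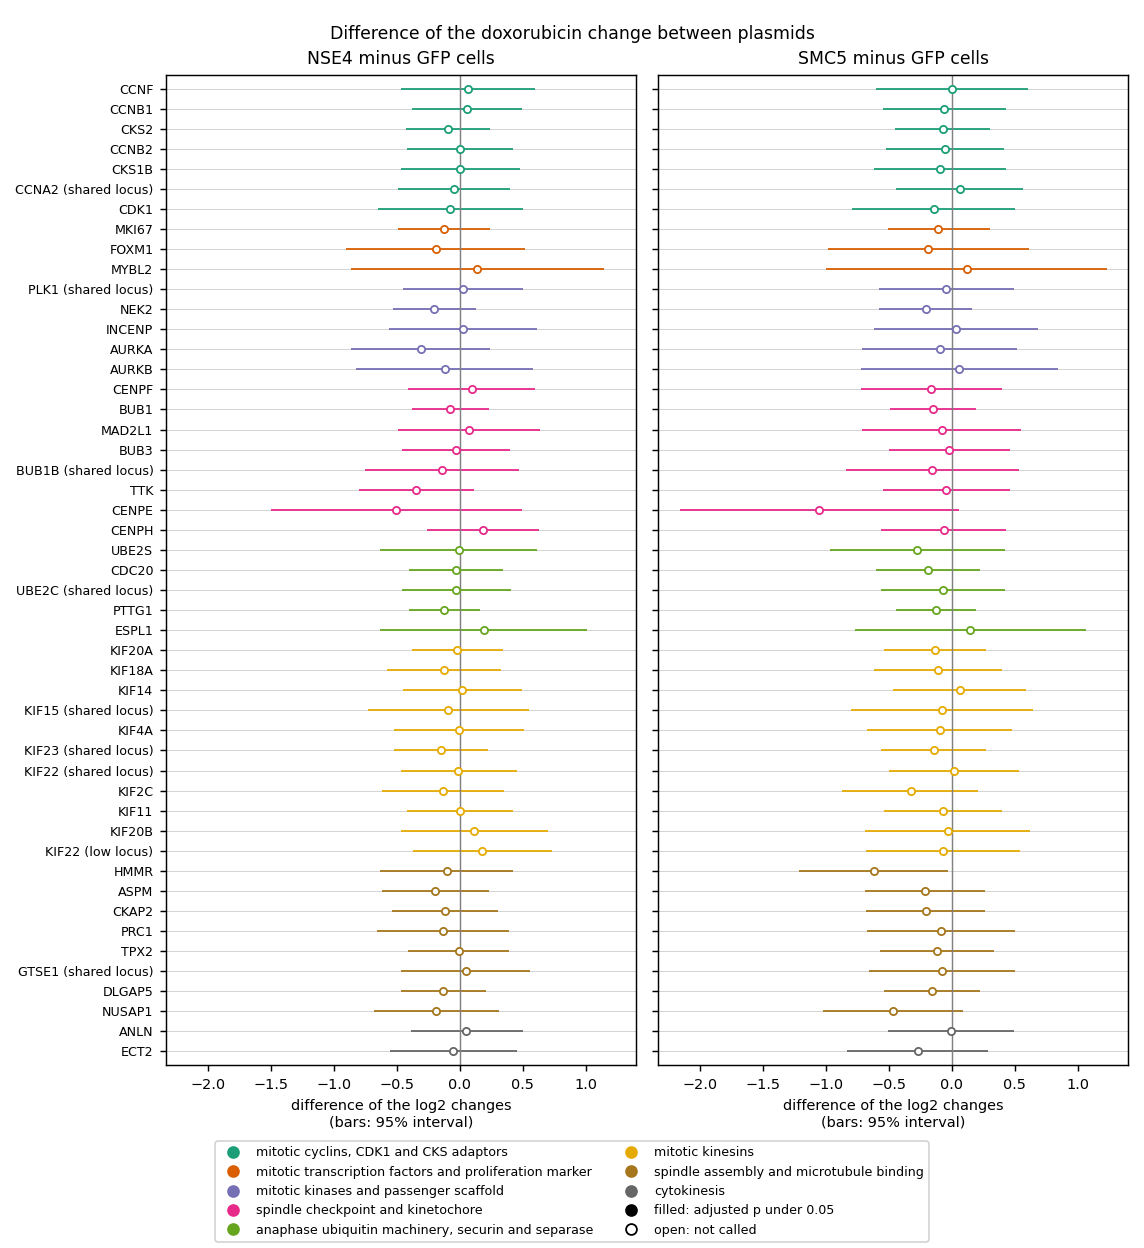
Difference between the doxorubicin change of NSE4 or SMC5 cells and that of GFP cells, on the log2 scale (x axis), for each member locus (y axis), with 95% intervals. Most NSE4 intervals lie within 1 on either side of 0 (46 of 49), as do 44 of 49 for SMC5, and CENPE and HMMR lie farthest to the left for SMC5.

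Genes of the same pathway outside the 48 were read in 4 lists chosen with earlier results of these data known. Of all tested loci 30.2% in NSE4, 20.9% in SMC5 and 31.1% in GFP cells were called in either direction. In the same order the share was 12.5%, 18.8% and 31.2% for APC/C subunits and their inhibitor, and 27.3%, 18.2% and 27.3% for MuvB, DREAM and pocket proteins. It was 36.4%, 18.2% and 36.4% for mitotic entry kinases and phosphatases, and 14.3%, 9.52% and 19.0% for other spindle, passenger and cytokinesis genes. These shares lie near or below those of all tested loci, so that the genes named next are examples and the lists as wholes do not stand out. By the same measure the 49 member loci, at 28.6%, 18.4% and 30.6%, were also near or below all tested loci. The members differed in direction, with falls at 22.4%, 18.4% and 26.5% against 13.9%, 9.87% and 14.1% of all tested loci. Of 16 loci of APC/C subunits and their inhibitor 1 rose and 1 fell in NSE4, 1 rose and 2 fell in SMC5 and 3 rose and 2 fell in GFP cells. ANAPC15, the subunit that helps the checkpoint complex turn over, fell in all 3 backgrounds, with log2 changes of −0.84, −0.99 and −1.07 in NSE4, SMC5 and GFP cells. CDC27, a scaffold subunit, fell in SMC5 and GFP cells (−0.80 and −0.67). The CDC27 call was lost in SMC5 cells without SMC5-PBS 1 (adjusted p = 0.0786). CDC27 lost its call in GFP cells without GFP-PBS 1 (adjusted p = 0.0657) or GFP-DOX 1 (adjusted p = 0.0664). ANAPC5, another scaffold subunit, rose in all 3 (0.50, 0.48 and 0.39 in the same order). The ANAPC5 call was lost in NSE4 cells without NSE4-PBS 1 (adjusted p = 0.0559) or NSE4-DOX 1 (adjusted p = 0.0625). ANAPC5 lost its call in SMC5 cells without the filter on low values, GFP-PBS 1, GFP-PBS 2 or SMC5-PBS 1 (adjusted p = 0.0504 to 0.141). ANAPC5 lost its call in GFP cells without GFP-PBS 1 (adjusted p = 0.0758), GFP-PBS 2 (adjusted p = 0.116) or GFP-DOX 2 (adjusted p = 0.131). FBXO5, the APC/C inhibitor EMI1, rose in GFP cells (0.49) at a locus shared with MTRF1L. The FBXO5 call was lost in GFP cells without GFP-PBS 2 (adjusted p = 0.0891), GFP-DOX 1 (adjusted p = 0.0607) or GFP-DOX 2 (adjusted p = 0.0548).

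Of 11 MuvB, DREAM and pocket protein loci 2 rose and 1 fell in NSE4, 1 rose and 1 fell in SMC5 and 2 rose and 1 fell in GFP cells. LIN9, a MuvB subunit, had 7.63 and 7.62 FPKM in NSE4 cells given doxorubicin, against 2.84 and 4.52 FPKM in NSE4 cells given PBS. For SMC5 cells LIN9 stood at 8.61 FPKM with doxorubicin, against 3.74 and 3.53 FPKM with PBS. For GFP cells LIN9 read 9.91 and 8.95 FPKM with doxorubicin, against 4.62 and 4.65 FPKM with PBS. All doxorubicin libraries were above all PBS libraries. LIN9 log2 changes were 0.91 (SE 0.17, limma adjusted p = 0.00513) in NSE4 cells, 1.05 (SE 0.20, limma adjusted p = 0.00974) in SMC5 cells and 0.89 (SE 0.17, limma adjusted p = 0.00547) in GFP cells. LIN54, the MuvB subunit that contacts the CHR letters shown above, rose in NSE4 and GFP cells (0.56 and 0.56). The LIN54 call was lost in NSE4 cells without NSE4-PBS 1 (adjusted p = 0.101), NSE4-DOX 1 (adjusted p = 0.0963) or NSE4-DOX 2 (adjusted p = 0.0504). LIN54 lost its call in GFP cells without GFP-PBS 1 (adjusted p = 0.0554), GFP-PBS 2 (adjusted p = 0.0928) or GFP-DOX 2 (adjusted p = 0.0943). TFDP2, the DP subunit that pairs with E2F proteins, fell in all 3 (−0.75, −0.51 and −0.56 in NSE4, SMC5 and GFP cells). The TFDP2 call was lost in SMC5 cells without the filter on low values, GFP-PBS 1, GFP-PBS 2, GFP-DOX 1, GFP-DOX 2, NSE4-PBS 1, NSE4-PBS 2, NSE4-DOX 1, NSE4-DOX 2, SMC5-PBS 1 or SMC5-PBS 2 (adjusted p = 0.0524 to 0.176) and with a pseudocount of 0.1 (adjusted p = 0.0508). TFDP2 lost its call in GFP cells without GFP-PBS 2 (adjusted p = 0.0619) or GFP-DOX 1 (adjusted p = 0.0655).

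Of 11 mitotic entry kinase and phosphatase loci 2 rose and 2 fell in NSE4, 2 rose and 0 fell in SMC5 and 2 rose and 2 fell in GFP cells. PKMYT1, the membrane kinase that holds CDK1 inactive, had 58.6 and 64.9 FPKM in NSE4 cells given doxorubicin, against 20.9 and 36.9 FPKM in NSE4 cells given PBS. For SMC5 cells PKMYT1 stood at 58.4 FPKM with doxorubicin, against 26.6 and 29.3 FPKM with PBS. For GFP cells PKMYT1 read 54.1 and 71.3 FPKM with doxorubicin, against 26.2 and 26.7 FPKM with PBS. Each doxorubicin library was above every PBS library. PKMYT1 log2 changes were 1.12 (SE 0.24, limma adjusted p = 0.00938) in NSE4 cells, 1.04 (SE 0.29, limma adjusted p = 0.0377) in SMC5 cells and 1.20 (SE 0.24, limma adjusted p = 0.00666) in GFP cells. The PKMYT1 call was lost in NSE4 cells without NSE4-DOX 2 (adjusted p = 0.0555). PKMYT1 lost its call in SMC5 cells without the filter on low values, GFP-PBS 1, GFP-PBS 2, NSE4-DOX 1, NSE4-DOX 2, SMC5-PBS 1, SMC5-PBS 2 or SMC5-DOX 2 (adjusted p = 0.0556 to 0.124). PKMYT1 lost its call in GFP cells without GFP-DOX 2 (adjusted p = 0.0516). MASTL, the Greatwall kinase that restrains a phosphatase opposing CDK1, rose too (0.70, 0.59 and 0.83 in NSE4, SMC5 and GFP cells). The MASTL call was lost in SMC5 cells without SMC5-PBS 1 (adjusted p = 0.0956) or SMC5-PBS 2 (adjusted p = 0.0912). BORA, the AURKA cofactor that activates PLK1, fell in NSE4 and GFP cells (−0.56 and −0.48), as did CCNB1IP1, a ubiquitin ligase that binds cyclin B1 (−0.36 and −0.42). The BORA call was lost in NSE4 cells without the filter on low values, NSE4-PBS 2, NSE4-DOX 1 or NSE4-DOX 2 (adjusted p = 0.0542 to 0.145). BORA lost its call in GFP cells without the filter on low values, GFP-PBS 1, GFP-PBS 2, GFP-DOX 1, GFP-DOX 2, NSE4-DOX 1, NSE4-DOX 2, SMC5-PBS 1 or SMC5-PBS 2 (adjusted p = 0.0578 to 0.236) and with a replicate block (adjusted p = 0.0556) and with GC-adjusted values (adjusted p = 0.0572). The CCNB1IP1 call was lost in NSE4 cells without the filter on low values, GFP-PBS 1, GFP-PBS 2, GFP-DOX 1, GFP-DOX 2, NSE4-PBS 1, NSE4-DOX 1 or NSE4-DOX 2 (adjusted p = 0.0504 to 0.171). CCNB1IP1 lost its call in GFP cells without GFP-PBS 1, GFP-PBS 2, GFP-DOX 1 or GFP-DOX 2 (adjusted p = 0.0683 to 0.0891).

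Of 21 other spindle, passenger and cytokinesis loci 1 rose and 2 fell in NSE4, 0 rose and 2 fell in SMC5 and 2 rose and 2 fell in GFP cells. DEPDC1, a gene expressed in mitotic cells, had 9.28 and 8.19 FPKM in NSE4 cells given doxorubicin, against 20.0 and 18.5 FPKM in NSE4 cells given PBS. For SMC5 cells DEPDC1 stood at 9.21 FPKM with doxorubicin, against 25.1 and 19.8 FPKM with PBS. For GFP cells DEPDC1 read 9.63 and 9.65 FPKM with doxorubicin, against 25.4 and 18.4 FPKM with PBS. The doxorubicin libraries were the lower ones throughout. DEPDC1 log2 changes were −1.06 (SE 0.17, limma adjusted p = 0.00258) in NSE4 cells, −1.19 (SE 0.21, limma adjusted p = 0.00592) in SMC5 cells and −1.09 (SE 0.17, limma adjusted p = 0.00221) in GFP cells. TACC3, a spindle microtubule cross-linker, rose in NSE4 and GFP cells (0.68 and 0.64). The TACC3 call was lost in NSE4 cells without NSE4-PBS 1 (adjusted p = 0.061) or NSE4-DOX 2 (adjusted p = 0.0663). TACC3 lost its call in GFP cells without GFP-PBS 2 (adjusted p = 0.0785) or GFP-DOX 2 (adjusted p = 0.0807). The locus of SPAG5, a spindle protein, fell in all 3 (−1.06, −1.03 and −1.03) but also names ALDOC, KIAA0100 and SGK494. The ANAPC15, DEPDC1, LIN9 and SPAG5 calls held under each of the 19 alternatives in every background.

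Base composition moved with the second library of each pair. Among the 41 member loci named by no other coding gene, transcript GC content ran from 34.2% in KIF20B to 60.5% in MYBL2 (median 42.6%). Across these loci the log2 difference of library 2 minus library 1 had a Spearman rho with GC content of 0.64 in NSE4 cells with doxorubicin and 0.44 with PBS. It was 0.89 in SMC5 cells with doxorubicin and 0.69 with PBS, and 0.73 in GFP cells with doxorubicin and 0.44 with PBS. The 0.89 is between the near-identical columns that count as 1 sample elsewhere, and so not between separate samples. Over 15438 loci of the table these rhos were lower, at 0.32 and 0.19 in NSE4, 0.76 and 0.37 in SMC5 and 0.22 and 0.24 in GFP cells. Among the members the doxorubicin change had a rho of 0.21 in NSE4, 0.26 in SMC5 and 0.13 in GFP cells. These are descriptions across loci that share libraries, with no test. With values adjusted for GC content, 15 members fell and 5 rose in NSE4 cells, 13 fell and 0 rose in SMC5 cells, and 15 fell and 4 rose in GFP cells. Calls over all tested loci grew as well. In NSE4 cells 2878 loci fell and 2848 rose, against 2205 and 2575 without the adjustment. In GFP cells 2910 fell and 2963 rose, against 2228 and 2691.

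**Figure D4:**
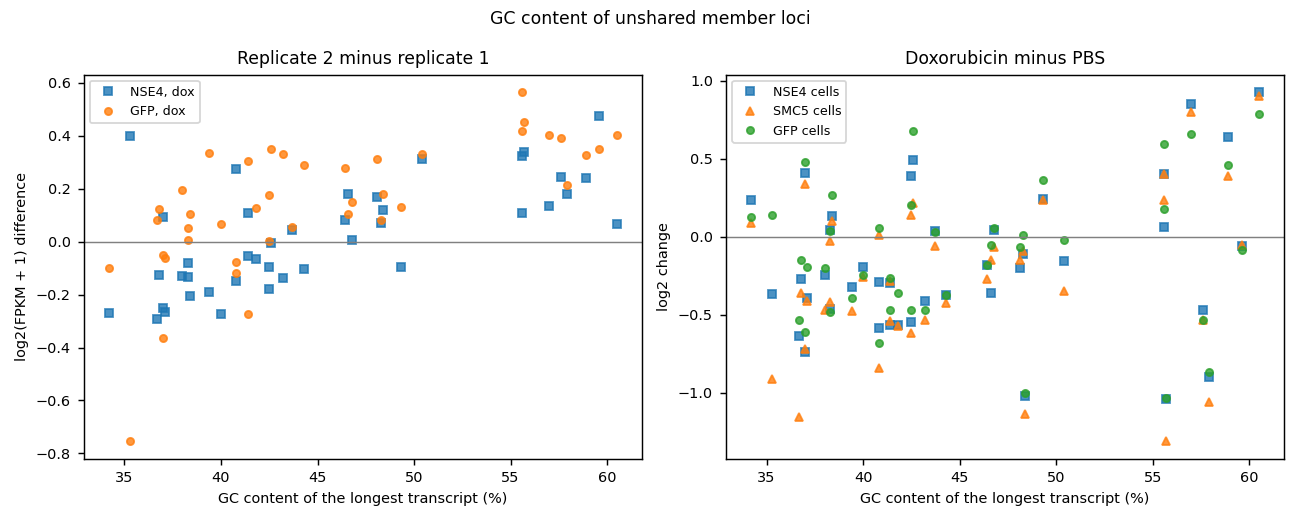
Transcript GC content in percent (x axes) of the 41 member loci named by no other coding gene, against the log2 difference of library 2 minus library 1 in doxorubicin-treated NSE4 (squares) and GFP (circles) cells (left) and against the doxorubicin change in NSE4, SMC5 and GFP cells (right). Points on the left climb with GC content (rho 0.64 and 0.73), and those on the right show less of a slope (rho 0.21, 0.26 and 0.13).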

How the data were processed

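Transcripts of 12 libraries of HCT116 cells were measured by RNA sequencing of total RNA. TopHat and Cufflinks are named, without a version, in the submitters' processing notes. The sources used here give neither genome build nor annotation. The table deposited by the authors holds 57908 loci with FPKM values, and 0 columns of other samples were left aside. That the unit is FPKM was taken from these tools, and no header states it. Depth was estimated from the FPKM step that 1 fragment makes in long transcripts (1500 bases or more).

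Values were tested two-sided with limma 3.58.1 in R 4.3.3 on log2(FPKM + 1), with an intensity trend, all 6 groups in 1 fit, 11 samples and 5 residual degrees of freedom. On this scale the change of a low gene comes out too small. The 15833 loci that reached 1 FPKM in 2 or more samples were tested, with Benjamini-Hochberg adjustment over all of them within each of 9 comparisons, with a threshold of 0.05. Intervals are limma's 95% intervals. The test was tried on simulated data first. GENCODE 29 gave gene types, lengths and GC content (96.6% of tested loci), and RefSeq the promoters. Python 3.11.15 ran the other steps, with matplotlib 3.10.9 for figures and pandas 2.3.3 and numpy 2.4.6 for tables.

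The members and the other lists were chosen with earlier results of these data known. Named are the 12 called members of smallest p per doxorubicin comparison, up to 3 called genes of smallest p per other list and comparison, and checks of the labels; genes named after their values were seen are marked in the text. The alternatives were another pseudocount, no filter, 2 scalings, a replicate block, the 12 columns as separate samples, GC-adjusted values and each library left out in turn.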

Additional observations from a re-analysis of the deposited data

How the results depend on the processing

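Across 7 alternative settings and 12 left-out libraries, 75 calls of named genes gave 1425 values, of which 1235 kept their direction and threshold side, 190 kept the direction but missed the threshold, and 0 changed sign. Named members without a call gave 703 values, of which 82 passed the threshold in the same direction and 8 changed sign. For the member counts listed next, calls over all tested loci moved in the same direction, but not by the same share. The exception in direction was rises in NSE4 cells under quantile normalization (2574 against 2575 loci). Without the filter on low values, 2509 of all tested loci rose in NSE4 cells against 2575 with it. In GFP cells 1889 fell without it, against 2228 with it. The member counts that moved by over 1.5 times were these. Without the filter on low values 8 fell in GFP cells, and 7 fell and 0 rose in NSE4 cells, where 33654 loci were tested. Under quantile normalization 5 rose in NSE4 cells. With GC-adjusted values 5 rose in NSE4 and 4 in GFP cells. With the 12 columns as separate samples, which counts 1 sample as 2, 6 rose in NSE4 cells, and 3 rose and 20 fell in SMC5 cells. With a replicate block 17 fell and 5 rose in NSE4 cells and 5 rose in GFP cells. The replicate numbers were not taken as pairs: deviations of same-numbered libraries correlated at −0.039 to 0.074 over 10 pairs of groups, with 0 over 0.1. None of these pairs includes doxorubicin-treated SMC5 cells. The difference of library 2 minus library 1 did climb with GC content in each group (rho 0.19 to 0.76 over 15438 loci). The 0.76 is between the near-identical columns of doxorubicin-treated SMC5 cells. Whether the members share an effect of replicate number was not tested. With the replicate block 3218 of all loci rose and 2695 fell in GFP cells, against 2691 and 2228 without it. Leaving out 1 library gave 7 to 13 falls and 0 to 3 rises in NSE4 cells, 5 to 11 falls and 0 to 2 rises in SMC5 cells, and 5 to 13 falls and 0 to 4 rises in GFP cells. In the 6 comparisons between plasmids and their interactions, 0 members were called under every one of these alternatives.

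Changes of sign were limited to 2 genes with no call. The log2 change of MKI67 in GFP cells, 0.01, was −0.02 under median-ratio scaling, −0.03 under quantile normalization, 0.00 with GC-adjusted values, and −0.03 to 0.05 when 1 library was left out, and that in NSE4 cells was −0.25 to 0.02 when 1 library was left out. The log2 change of CENPE in GFP cells, 0.14, was −0.24 to 0.52 when 1 library was left out, with −0.10 without GFP-PBS 2 and −0.24 without GFP-DOX 1. The cause was not tested for any of these. With 2 libraries a group the median SE of a log2 change over all loci was 0.204 in SMC5 and 0.166 in GFP cells, which limits what can be called.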
